A study of Mus musculus with 14 samples.

Results

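Spleen RNA was compared between mice that had received IL-23 in the ear and mice that had received imiquimod on the ear, 2 ways of raising psoriasis-like inflammation at the same skin site. The comparison took every library of these groups, 7 of the 14 in the series, and all 22116 entries with a gene name of 22740 in the count table. All mice were female wild-type BALB/c aged 6 to 8 weeks. For the group called IL-23-ear here, 3 mice had recombinant mouse IL-23 injected into the ear skin at 1 µg per ear, with 4 injections spread over 7 days. For the group called imiquimod-ear, 4 mice had a 5% imiquimod cream put on the ear each day for 5 days. The 3 control mice had petrolatum on back and ears, and the design text calls them untreated. They had no injection, so agent, route and duration differ together between the groups and cannot be told apart. The other 4 libraries, of mice with imiquimod on the back, entered the gene filter, the scaling, the principal components and the fit's estimate of spread. They are not compared here. Libraries are named by group and replicate number, and values per library follow the order IL-23-ear 1, 2 and 3, then imiquimod-ear 1, 3, 4 and 5.

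IL-23 is a cytokine of dendritic cells and macrophages that sustains T cells and innate lymphocytes making IL-17 and IL-22. Imiquimod is an agonist of Toll-like receptor 7, an endosomal sensor of RNA that signals through the adaptor Myd88 to interferon and inflammatory genes. The spleen filters blood in its red pulp and starts antibody responses in its white pulp. In mice it can also make red cells and granulocytes. The genes below are ordered by these roles.

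The 7 libraries held 33888595 to 37402120 counts over named genes. Markers of spleen were present in all 7, among them Cd79a of B cells at 660.1 to 884.0 CPM, Cxcl13 of follicle stroma at 346.8 to 400.5 CPM and Spic of red pulp macrophages at 40.9 to 102 CPM (CPM, the counts scaled to a common library size with TMM factors). On the first principal component (56.67%) the libraries of mice with imiquimod on the back lay at 74.11 to 91.28, apart from all others. The IL-23-ear libraries lay between -60.77 and -42.92 on it, beside the controls at -51.68 to -33.22. Imiquimod-ear 1, 3 and 4 lay between -4.94 and 4.42, and imiquimod-ear 5 stood apart from them at -30.98. On the second component (9.77%) IL-23-ear lay at 8.60 to 14.37, the controls at 11.27 to 20.29 and imiquimod-ear at -57.78 to -10.19. Summed markers of pancreas, a neighbouring organ, were 10.8 to 16.2 CPM in IL-23-ear and 7.6 to 15.2 CPM in imiquimod-ear, with Prss1, Ins1 and Ins2 at 0 in all 10 libraries of the 3 groups. Summed adipose markers were 545.3 to 580.8 against 429.1 to 484.3 CPM. Their part in the results was not tested.

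Interferon-stimulated and T cell genes were higher after IL-23 than after imiquimod, and genes of dividing cells and plasma cells were lower. Of 15159 genes tested, 2623 (17.3%) differed by edgeR's quasi-likelihood test at an adjusted p under 0.05. There were 1070 higher (7.06%) and 1553 lower (10.2%) in IL-23-ear, and 736 of them differed 2-fold or more, 180 higher and 556 lower. The median log2 fold change of all genes tested was -0.02, and the CPM of the groups did not overlap for 3874 genes (25.6%). The count rested on which libraries entered: it was 1326, 1647 and 1101 without IL-23-ear 1, 2 or 3, and 1396 and 1654 without imiquimod-ear 1 or 3. Without imiquimod-ear 5 it was 4463 of 15113 (29.5%; 2059 or 13.6% higher and 2404 or 15.9% lower), and a fit of the 7 libraries alone called 1247.

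**Figure D1:**
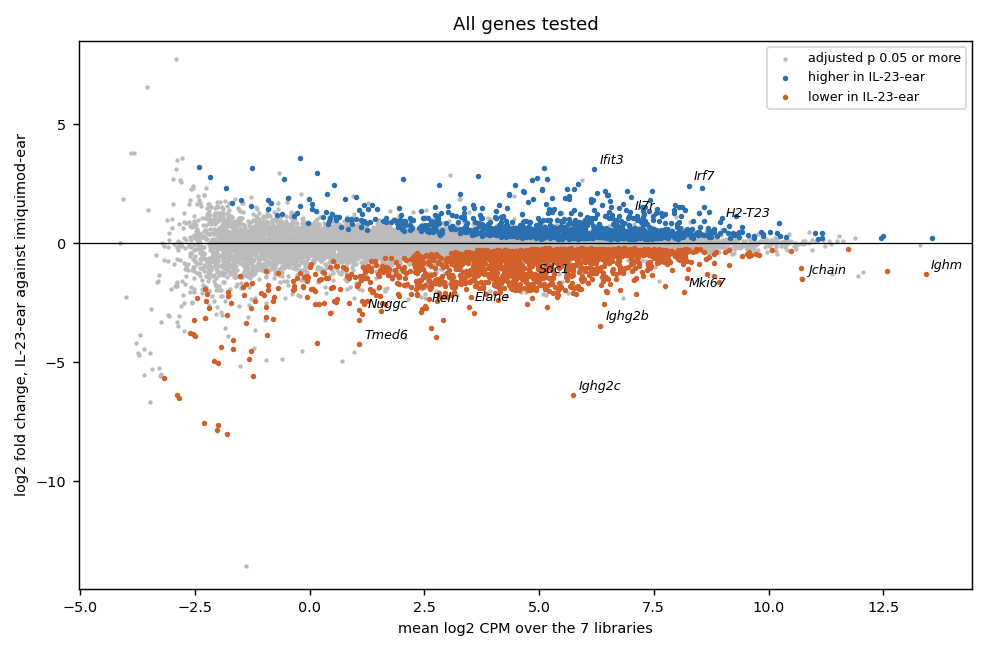
Each point is 1 of 15159 genes, with its mean log2 CPM over the 7 libraries on the x axis and its log2 fold change, IL-23-ear against imiquimod-ear, on the y axis. Blue marks the 1070 genes higher and orange the 1553 lower in IL-23-ear at an adjusted p under 0.05; Ighg2c at -6.38 lies far below genes of like level and Ifit3 at 3.10 near the top.

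The type I interferon response stood out among the higher genes. Of 37 tested members 34 were higher and 0 lower, and the median was 1.90 on the log2 scale; 35 did not overlap between the groups. The count stayed between 33 and 35 in all 18 alternative analyses. Ifit3 (ENSMUSG00000074896; GRCm39 chromosome 19, 34560899 to 34566443, plus strand), an RNA-binding antiviral protein, measured 163, 398 and 281 CPM after IL-23 and 31.6, 13.9, 21.7 and 64.0 CPM after imiquimod. Every IL-23-ear library was above every imiquimod-ear library, and the controls spread from 82.8 to 289 CPM. The means were 281 ± 117 (SD, n = 3) against 32.8 ± 22.04 CPM (n = 4), which is 3.10 ± 0.54 (SE) on the log2 scale at an adjusted p of 0.00429. Its near-identical neighbour Ifit3b, with which reads may be split, was at 3.15 ± 0.53 (adjusted p = 0.00352). Irf7 (chromosome 7, 140842619 to 140846398, minus strand), the transcription factor that amplifies interferon production, measured 570, 992 and 936 CPM against 164, 79.1, 173 and 211 CPM. That is a log2 fold change of 2.41 ± 0.37 (adjusted p = 0.00233). Rnf213, a large ubiquitin ligase, measured 651, 1136 and 1113 CPM against 231, 150, 160 and 229 CPM (2.33 ± 0.27, adjusted p = 0.000903). In all 3 genes imiquimod-ear 3 was the lowest library and IL-23-ear 1 the lowest of its group.

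Other members pointed the same way. Mx1 and Mx2, antiviral GTPases, were at 2.30 and 2.63, Oas2, which makes the activator of RNase L, at 2.5, and Ifit1 at 2.71 (adjusted p 0.00583, 0.00273, 0.00413 and 0.00431). Of the PYHIN family of DNA-binding proteins, whose members share sequence, Ifi206 was at 2.73 and Ifi213 at 2.70. Isg15, a ubiquitin-like modifier, measured 131, 334 and 236 CPM against 68.7, 38.2, 104 and 87.6 CPM (1.65 ± 0.40, adjusted p = 0.0181). Its groups did not overlap, but the call was lost without IL-23-ear 2 (1.32, adjusted p = 0.0648) or IL-23-ear 3 (1.66, adjusted p = 0.0545), and without imiquimod-ear 1 it stood at 1.62 and 0.0512. The 3 tested members that missed the threshold were Ifit2, Isg20 and Rsad2, named after their values were seen. Rsad2, which encodes viperin, measured 57.5, 149 and 70.1 CPM against 46.2, 20.5, 229 and 95.8 CPM, with imiquimod-ear 4 above every IL-23-ear library (-0.09 ± 0.64, adjusted p = 0.94). Ifit2 was at 2.66 ± 0.89 (adjusted p = 0.0609) with groups that did not overlap, and control 2 stood at 1.97 CPM against 192 and 138 CPM in controls 4 and 5.

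Windows of 250 bases before the transcription start were read from GRCm39 at GENCODE canonical starts to show what these genes share. The core of the interferon-stimulated response element, GAAANNGAAA on either strand, was in 15 of the 37 windows (40.5%) and in 487 of 15154 windows of all genes tested (3.21%). The windows of the 2 members with the smallest adjusted p that hold it are printed 5′ to 3′ on the gene's strand, with the matches in capitals. Ddx60, a helicase-like antiviral factor (chr8:62380873-62381122, plus strand), has 2 matches, the nearer beginning 21 bases before the start. Bst2, the tetherin that holds virions at the cell surface (chr8:71990115-71990364, minus strand), has 2 overlapping ones, the nearer beginning 126 bases before the start.
Ddx60: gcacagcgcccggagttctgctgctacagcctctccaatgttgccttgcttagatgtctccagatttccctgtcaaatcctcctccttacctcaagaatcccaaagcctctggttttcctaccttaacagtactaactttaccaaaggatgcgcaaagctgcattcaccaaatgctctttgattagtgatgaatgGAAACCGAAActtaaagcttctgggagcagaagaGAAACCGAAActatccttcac
Bst2: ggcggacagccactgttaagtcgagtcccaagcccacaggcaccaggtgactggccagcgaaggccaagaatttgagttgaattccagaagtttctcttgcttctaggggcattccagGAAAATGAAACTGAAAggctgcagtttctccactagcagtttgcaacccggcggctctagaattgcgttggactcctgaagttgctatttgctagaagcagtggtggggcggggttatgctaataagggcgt
A match is a description of letters and not a shown binding site. Ddx60 measured 48.6, 78.7 and 60.9 CPM against 13.7, 7.53, 14.4 and 20.1 CPM (2.17 ± 0.29, adjusted p = 0.00115). Bst2 measured 248, 402 and 426 CPM against 114, 90.2, 87.9 and 112 CPM (1.83 ± 0.25, adjusted p = 0.00148). In both genes the lowest IL-23-ear library was above the highest imiquimod-ear library.

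Genes of the interferon gamma response and of antigen presentation were higher by smaller amounts. Of 25 interferon gamma members 14 were higher and 0 lower (median 0.79), among them the guanylate-binding proteins Gbp9 at 1.37 ± 0.20 and Gbp3 at 0.78 ± 0.14 and the immunity-related GTPase Igtp at 1.11 ± 0.19 (adjusted p 0.00158, 0.00381 and 0.00331). The chemokine Cxcl10 measured 29.96, 94.3 and 67.6 CPM against 20.9, 13.9, 14.7 and 22.1 CPM (1.83 ± 0.41, adjusted p = 0.0129). The count fell to 9 without IL-23-ear 3. Of 20 MHC class I presentation genes 13 were higher and 0 lower (median 0.44). H2-T23, the nonclassical molecule Qa-1, measured 644, 744 and 704 CPM against 355, 339, 382 and 439 CPM, with no overlap (0.88 ± 0.11, adjusted p = 0.000845). Tapbp, the peptide-loading chaperone tapasin, was at 0.57 ± 0.11, and the proteasome activator subunit Psme1 at 0.59 ± 0.12 (adjusted p 0.00412 and 0.0069). The class I count was 5 without IL-23-ear 2, IL-23-ear 3 or imiquimod-ear 3, 6 without imiquimod-ear 1 and 7 without imiquimod-ear 4. Of 15 class II genes 7 were higher and 0 lower (median 0.27; 12 higher without imiquimod-ear 5), with H2-Oa at 0.65 ± 0.10, the protease Ctss at 0.61 ± 0.10 and the costimulator Cd86 at 0.55 ± 0.10 (adjusted p 0.00176, 0.002 and 0.00287).

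**Figure D2:**
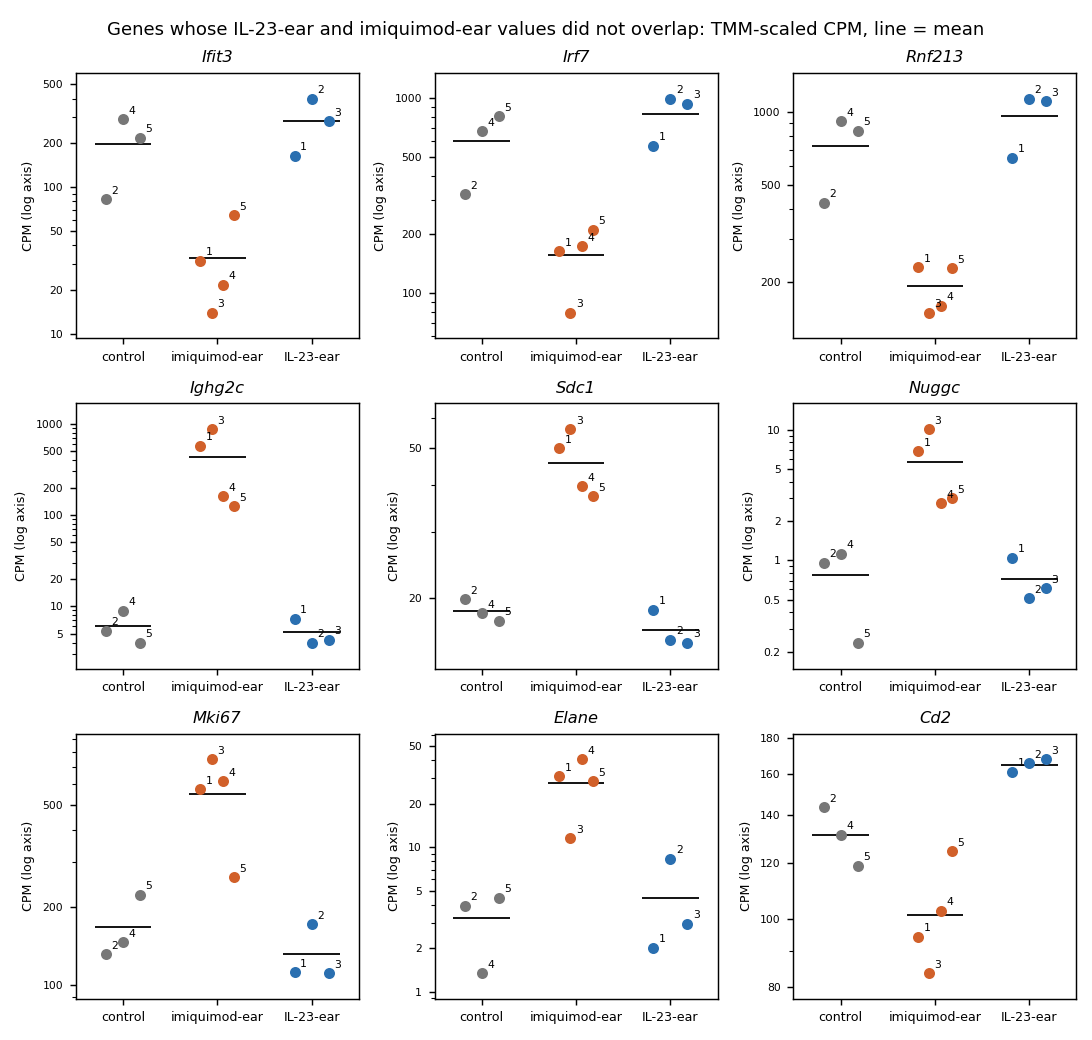
Each panel plots TMM-scaled CPM on a log axis for 1 gene, with 1 point per library, its replicate number beside it and a line at the group mean. In all 9 genes the IL-23-ear points (blue) and imiquimod-ear points (orange) do not overlap; Ighg2c lies at 3.97 to 7.31 against 124 to 875 CPM, and imiquimod-ear 5 is the imiquimod-ear library nearest IL-23-ear in Ifit3, Sdc1, Mki67 and Cd2.

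The pathways of the agents themselves were examined next. Of 27 genes of endosomal Toll-like receptor signaling 7 were higher (25.9%, against 7.06% of all genes tested) and 1 lower (3.7%, against 10.2%). The median was 0.17, and 14 did not overlap. Irf7, given above, is among the 7 and is also a member of the type I interferon list. Tlr7, the receptor of imiquimod, measured 81.6, 118 and 108 CPM against 61.3, 48.8, 44.2 and 56.0 CPM, and the groups did not overlap (0.96 ± 0.17, adjusted p = 0.00349). Irak2, a kinase of the same pathway, was at 0.34 ± 0.07 (adjusted p = 0.0078). Its adaptor Myd88 was at 0.26 ± 0.10 (adjusted p = 0.0842) and the trafficking protein Unc93b1 at 0.08 ± 0.10 (adjusted p = 0.59), neither past the threshold. The higher count was 4 without IL-23-ear 3, 3 without imiquimod-ear 3 or 4 and 3 in a fit of the 7 libraries alone.

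Of 30 genes of the IL-23 and type 17 axis 22 could be tested (median 0.15). Of these 2 were higher (9.09%, against 7.06% of all genes tested) and 2 lower (9.09%, against 10.2%). Both shares were near those of all genes tested. Transcripts of the cytokines themselves were at or near the limit of detection. Il17a had 0 counts in all 10 libraries, which allows up to 0.0755 to 0.0960 CPM in each (3 counts, counting error only). Il17f reached at most 0.0960 CPM and Il22 at most 0.0264 CPM, and Il23a, the subunit particular to IL-23, at most 0.233 CPM, and none of the 4 passed the filter for testing. Il23r, the receptor, measured 1.07, 0.456 and 1.09 CPM against 0.291, 0.402, 0.364 and 0.604 CPM. The groups overlapped and it missed the threshold (1.06 ± 0.43, adjusted p = 0.103), which it passed without imiquimod-ear 5 (1.32, adjusted p = 0.0482). Il12rb1, the receptor chain shared with IL-12, was at 0.13 ± 0.22 and Il12b, the shared cytokine subunit, at -0.66 ± 0.37 (adjusted p 0.715 and 0.228). The members that passed are also expressed outside type 17 cells: Il7r, the IL-7 receptor of naive and memory T cells, at 1.15 ± 0.22 (adjusted p = 0.00528), and Irf4, a transcription factor also high in plasma cells, at -0.78 ± 0.15 (adjusted p = 0.00481). The other 2 were Il17rc at 0.53 and Ccr6 at -0.50. The higher count was 1 without IL-23-ear 1, 2 or 3 or imiquimod-ear 3 or 4 and 5 without imiquimod-ear 5. The lower count was 1 without any 1 of the 10 libraries but imiquimod-ear 5, and limma-voom called 4 higher and 1 lower.

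Genes of antibody-secreting cells were lower after IL-23. Of 25 plasma cell genes 0 were higher and 21 lower (median -1.0036), and 17 to 21 were lower in all alternatives. Sdc1 (chromosome 12, 8820854 to 8843725, plus strand), the surface proteoglycan CD138, measured 18.7, 15.5 and 15.2 CPM against 49.9, 56.1, 39.6 and 37.2 CPM. The groups did not overlap, and the controls at 17.4 to 19.9 CPM lay near the IL-23-ear libraries (-1.47 ± 0.15, adjusted p = 0.000483). Txndc5, a disulfide isomerase, measured 266, 262 and 248 CPM against 893, 1102, 687 and 553 CPM (-1.64 ± 0.20, adjusted p = 0.001). Prdm1 and Xbp1, the transcription factors that set up secretion, were at -1.52 ± 0.24 and -1.11 ± 0.18 (adjusted p 0.00209 and 0.00218). Jchain, which links IgM and IgA polymers, was at -1.51 ± 0.21, Fkbp11 at -1.86 ± 0.23 and Mzb1, a chaperone of IgM assembly, at -1.46 ± 0.21 (adjusted p 0.00158, 0.000921 and 0.00159). In bulk tissue fewer cells of a type and less RNA per cell cannot be told apart, here and for each cell type below.

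The immunoglobulin heavy chain constant genes differed by isotype. Of 8 tested, 5 were lower, 1 higher and 2 missed the threshold. Ighg2c (ENSMUSG00000076612; chromosome 12, 113248945 to 113252552, minus strand) measured 7.31, 3.97 and 4.29 CPM against 575, 875, 160 and 124 CPM. Every imiquimod-ear library was above every IL-23-ear library, and the controls stood at 3.99 to 8.90 CPM. The log2 fold change was -6.38 ± 0.80 (adjusted p = 0.00115). BALB/c mice carry an IgG2a gene where the reference strain has Ighg2c, so these counts are uncertain as to isotype. Ighg2b was at -3.47 ± 0.44, Ighg3 at -2.14 ± 0.29 and Ighm at -1.29 ± 0.16 (adjusted p 0.00115, 0.00135 and 0.000921). Ighg1 was at -1.97 ± 0.49 (adjusted p = 0.0206), a call lost without IL-23-ear 2 (-1.88, adjusted p = 0.063) or IL-23-ear 3 (-1.72, adjusted p = 0.0907). Ighd, the isotype of naive B cells, went the other way, at 1087, 1140 and 1061 CPM against 763, 694, 827 and 921 CPM (0.45 ± 0.09, adjusted p = 0.00523). Igha was at 0.03 ± 0.32 (adjusted p = 0.959), with a sign that changed among alternatives. All immunoglobulin genes together took 1.69% ± 0.184 of counts (SD, n = 3) against 3.75% ± 0.606 (n = 4) and 1.68% ± 0.140 in the controls (n = 3). The groups did not overlap, and the exact 2-sided permutation test gave p = 0.0571, the smallest value that 3 against 4 libraries allow.

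Genes of protein folding in the endoplasmic reticulum were lower by smaller amounts. Of 28 folding and unfolded protein response genes 0 were higher and 19 lower (median -0.53). The count was 10 without IL-23-ear 1, 11 without IL-23-ear 3 and 8 in a fit of the 7 libraries alone. Creld2, an endoplasmic reticulum chaperone, measured 68.2, 78.7 and 88.8 CPM against 232, 297, 186 and 151 CPM, with no overlap (-1.46 ± 0.23, adjusted p = 0.0023). Edem2, which marks misfolded glycoproteins for removal, was at -0.70 ± 0.11 and the oxidase Ero1b at -0.33 ± 0.06 (adjusted p 0.00173 and 0.00444). The 25 plasma cell markers summed to 3008.2 to 3469.0 CPM in IL-23-ear and 5595.7 to 9284.4 CPM in imiquimod-ear, none of them at 0 in all 10 libraries. Their part in the folding genes was not tested.

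Promoter letters were compared in the same windows. The endoplasmic reticulum stress element, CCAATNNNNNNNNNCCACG on either strand, was in 9 of the 28 windows of folding genes (32.1%) and in 16 of 15154 windows in all (0.106%). Of the plasma cell windows it was in 1 of 25, that of Derl3. The matches are printed 5′ to 3′ with the element's fixed letters in capitals, since they are the sequence these genes share; that of Creld2 lies at chr15:88703723-88703741 on the minus strand and that of Hspa5 at chr2:34662037-34662055 on the plus strand.
Hspa5: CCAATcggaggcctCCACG
Creld2: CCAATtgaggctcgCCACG
Pdia6: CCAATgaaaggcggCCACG
Dnajc3: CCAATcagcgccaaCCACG
Ero1b: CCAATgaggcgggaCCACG
Calr: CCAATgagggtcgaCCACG
Canx: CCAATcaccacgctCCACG
Syvn1: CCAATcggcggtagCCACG
Derl3: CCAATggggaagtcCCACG
Hsp90b1, first: CCAATcgcaaggagCCACG
Hsp90b1, second: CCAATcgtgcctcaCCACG
Of the 9 folding genes with the element 5 were lower past the threshold, and 14 of the 19 folding genes that were lower do not hold it. Creld2 at -1.46 and Hsp90b1 at -1.03 (adjusted p = 0.00818) had the largest differences of the 9. Hspa5, the chaperone BiP, was at -0.28 (adjusted p = 0.263) and Canx, calnexin, at -0.20 (adjusted p = 0.323). The element was present in genes past and short of the threshold alike. The letters that end it, CCACG, were by themselves in 12 of the 25 plasma cell windows (48%) and in 36.1% of all windows. The windows of the 2 members with the smallest adjusted p that hold those letters are printed with them in capitals, read as CGTGG where they lie on the opposite strand. Sdc1 (chr12:8821034-8821283, plus strand) has 1 match beginning 56 bases before the start, and Txndc5 (chr13:38712467-38712716, minus strand) has 2, the nearer beginning 9 bases before it.
Sdc1: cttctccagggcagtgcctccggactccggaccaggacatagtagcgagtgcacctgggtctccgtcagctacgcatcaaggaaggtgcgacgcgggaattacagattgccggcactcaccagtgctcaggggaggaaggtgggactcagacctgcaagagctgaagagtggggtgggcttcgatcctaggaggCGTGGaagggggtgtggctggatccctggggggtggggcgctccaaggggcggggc
Txndc5: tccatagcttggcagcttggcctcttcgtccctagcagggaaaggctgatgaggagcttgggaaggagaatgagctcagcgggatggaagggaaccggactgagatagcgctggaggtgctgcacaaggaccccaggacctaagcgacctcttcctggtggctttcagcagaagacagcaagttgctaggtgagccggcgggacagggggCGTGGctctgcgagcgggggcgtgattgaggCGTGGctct

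Of 19 germinal center genes tested, 6 were lower (31.6%, against 10.2% of all genes tested) and 2 higher (10.5%, against 7.06%). The median was -0.44, and -0.24 without IL-23-ear 2 or -0.25 without imiquimod-ear 3. Nuggc, a nuclear GTPase of germinal center B cells, measured 1.04, 0.514 and 0.612 CPM against 6.84, 10.1, 2.75 and 2.99 CPM. The lowest imiquimod-ear library was above every IL-23-ear library (-2.96 ± 0.60, adjusted p = 0.0065). The transcription factor Mybl1 was at -2.65 ± 0.56 (adjusted p = 0.00831, and 0.0544 in a fit of the 7 libraries alone). The 2 higher members were Cxcr5, the follicle-homing receptor, and Cd40lg, the T cell ligand that helps B cells, at 0.43 and 1.02. The lower count was 3 without IL-23-ear 3 and in that smaller fit, and the higher count was 0 without IL-23-ear 1 or 2 or imiquimod-ear 1 or 3 and 1 without IL-23-ear 3 or imiquimod-ear 4.

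Among the 12 largest falls named by rule were 3 genes that belong to none of the lists: Reln, Trabd2b and Tmed6. Reln, the secreted matrix protein reelin, measured 2.09, 2.03 and 1.86 CPM against 12.8, 19.4, 11.7 and 8.68 CPM (-2.72 ± 0.28, adjusted p = 0.000444). Trabd2b, a metalloprotease that cleaves Wnt proteins, measured 1.98, 1.88 and 2.14 CPM against 20.02, 22.9, 6.89 and 4.90 CPM (-2.77 ± 0.53, adjusted p = 0.00519). Tmed6, of a family that sorts cargo in the secretory pathway, measured 0.391, 0.428 and 0.585 CPM against 6.84, 21.98, 5.10 and 1.66 CPM (-4.24 ± 0.85, adjusted p = 0.00712, and 0.0766 by limma-voom). In each of them imiquimod-ear 3 was the highest and imiquimod-ear 5 the lowest of its group, and the 3 IL-23-ear libraries lay close together.

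Genes of cell division were lower after IL-23. All 34 cell cycle and mitosis genes tested were lower (median -1.85), all 34 without overlap between the groups, and 33 or 34 in the alternatives. Mki67 (chromosome 7, 135291513 to 135318299, minus strand), a nuclear protein of dividing cells, measured 112, 173 and 111 CPM against 575, 749, 615 and 262 CPM (-2.06 ± 0.33, adjusted p = 0.00259). Imiquimod-ear 5 was the lowest of its group, and control 5 at 224 CPM was the highest control. Cdc20, an activator of the ubiquitin ligase that ends mitosis, was at -2.15 ± 0.31, Nusap1 of the spindle at -1.83 ± 0.26 and Ect2, which starts the cleavage furrow, at -1.94 ± 0.28 (adjusted p 0.00185, 0.00158 and 0.00161). Of 40 DNA replication genes 0 were higher and 37 lower (median -1.05), with the cell cycle transcription factors E2f2 at -1.27 ± 0.22 and E2f8 at -1.90 ± 0.35 and the helicase partner Cdc45 at -1.50 ± 0.28 (adjusted p 0.00317, 0.00482 and 0.00497). The replication count was 12 without IL-23-ear 1 or 3, 22 without imiquimod-ear 1 and 21 without imiquimod-ear 3. Markers of some cell types that divide, or that come from dividing cells, were summed for the same libraries. Erythroid markers were 3979.4 to 15633.2 CPM in IL-23-ear and 8857.2 to 56597.9 CPM in imiquimod-ear, ranges that overlap. Primary granule genes were at 642.8 to 736.9 and 754.3 to 913.4 CPM, which do not. Other members than the main granule enzymes made up most of that sum in every library of both groups. In imiquimod-ear 4, where these enzymes were highest, Mpo was at 133, Prtn3 at 47.4, Elane at 40.5 and Ctsg at 23.1 CPM. In imiquimod-ear 3 Mpo was at 39.5, Prtn3 at 12.4, Elane at 11.5 and Ctsg at 4.83 CPM. Plasma cell markers were at 3008.2 to 3469.0 CPM in IL-23-ear and 5595.7 to 9284.4 CPM in imiquimod-ear, which do not overlap. Germinal center genes were at 1029.3 to 1092.6 and 989.4 to 1193.7 CPM, which overlap. The part of any of these cell types in the division genes was not tested.

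CCAAT on either strand, the site of the factor NF-Y that is known from promoters of mitotic genes, was in 15 of 34 windows of cell cycle genes (44.1%), in 19 of 40 of replication genes (47.5%) and in 35.6% of all windows. The windows of the 2 cell cycle members with the smallest adjusted p that hold it are shown with the matches in capitals, ATTGG being the same letters on the opposite strand. Ect2 (chr3:27208030-27208279, minus strand) has 2 matches, the nearest beginning 53 bases before the start. Hmmr, a hyaluronan receptor that acts on the spindle (chr11:40624281-40624530, minus strand), has 4, the nearest beginning 31 bases before it.
Ect2: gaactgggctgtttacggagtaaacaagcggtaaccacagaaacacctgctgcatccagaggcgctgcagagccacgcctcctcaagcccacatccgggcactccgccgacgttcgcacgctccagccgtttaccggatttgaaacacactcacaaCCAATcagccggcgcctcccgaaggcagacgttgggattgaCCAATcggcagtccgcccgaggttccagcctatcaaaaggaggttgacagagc
Hmmr: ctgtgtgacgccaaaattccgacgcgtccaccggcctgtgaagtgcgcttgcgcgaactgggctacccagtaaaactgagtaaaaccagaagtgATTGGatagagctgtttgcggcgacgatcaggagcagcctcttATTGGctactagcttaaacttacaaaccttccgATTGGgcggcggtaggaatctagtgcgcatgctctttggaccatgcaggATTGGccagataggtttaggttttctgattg
Hmmr measured 10.5, 15.6 and 9.96 CPM against 60.4, 82.4, 60.6 and 32.1 CPM (-2.29 ± 0.35, adjusted p = 0.00214), and Ect2 measured 9.92, 11.8 and 8.93 CPM against 40.3, 51.6, 44.7 and 20.3 CPM. In both genes imiquimod-ear 5 was the lowest of its group and still above every IL-23-ear library.

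Neutrophil genes were listed by stage, and the difference between the stages was not tested. The primary granule is made in bone marrow promyelocytes. Of 14 of its genes 6 were lower (42.9%, against 10.2% of all genes tested) and 1 higher (7.14%, against 7.06%), with a median of -1.57. Elane, neutrophil elastase (chromosome 10, 79722081 to 79724051, plus strand), measured 2.01, 8.30 and 2.95 CPM against 30.9, 11.5, 40.5 and 28.5 CPM. IL-23-ear 2 and imiquimod-ear 3 came nearest to each other without overlap (-2.66 ± 0.55, adjusted p = 0.00883). Mpo, Prtn3 and Ctsg, the other main granule enzymes, were at -2.70 ± 0.56, -2.94 ± 0.60 and -2.90 ± 0.58 (adjusted p 0.00929, 0.00816 and 0.00723; Mpo at an adjusted p of 0.0568 in a fit of the 7 libraries alone). The 1 higher member, Nkg7, is also a granule protein of NK and T cells and its call was lost without any of 9 libraries. The list median was -2.83 without IL-23-ear 2. Of 26 mature neutrophil genes 2 were lower (7.69%, against 10.2% of all genes tested) and 24 missed the threshold (median -0.58). The 2 were Clec4e and Stfa2. S100a8, a subunit of calprotectin, measured 13.5, 53.5 and 12.1 CPM against 67.4, 16.9, 73.1 and 78.9 CPM. IL-23-ear 2 lay among the higher values and imiquimod-ear 3 among the lower, so the groups overlapped (-1.17 ± 0.58, adjusted p = 0.184). Without IL-23-ear 2 it was at -2.19 (adjusted p = 0.0281) and the list had 7 lower members, against 0 without IL-23-ear 1 or 3 or imiquimod-ear 1, 4 without imiquimod-ear 3 and 1 without imiquimod-ear 4.

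Erythroid genes had a large median difference and few calls. Of 41 tested, 0 were higher and 4 lower: Mylk3, Gfi1b, Tfrc and Sptb. The 4 were 9.76% of the list, against 10.2% lower of all genes tested, and the list median was -1.60. The count was 0 without IL-23-ear 1 or 3, imiquimod-ear 1 or 4 or control 4, 2 without control 2 or 5, 12 without imiquimod-ear 3 and 10 without imiquimod-ear 5. It was 26 by DESeq2, 2 by limma-voom, 9 with a minimum count of 30, 1 without a filter and 0 in a fit of the 7 libraries alone. Alas2, the first enzyme of heme synthesis in red cell precursors, measured 102, 144 and 25.5 CPM against 177, 84.6, 589 and 211 CPM. The groups overlapped, with IL-23-ear 3 the lowest and imiquimod-ear 4 the highest of all (-1.55 ± 0.69, adjusted p = 0.14). Hba-a1 was at -1.38 ± 0.65 and Gata1, the erythroid transcription factor, at -1.12 ± 0.45 (adjusted p 0.161 and 0.109). Haemoglobin genes took 0.963% ± 0.557 of counts (SD, n = 3) against 2.31% ± 1.80 (n = 4) and 2.45% ± 1.53 in the controls (n = 3), and the exact 2-sided permutation test gave p = 0.229. The difference fell from -1.35 to -0.49 percentage points without imiquimod-ear 4. Of 14 heme biosynthesis genes 3 were lower (21.4%, against 10.2% of all genes tested), Abcb6 and Cpox among them, with a median of -0.96. The heme count was 7 without imiquimod-ear 3 or 5 and 1 without IL-23-ear 2 or control 4. It was 0 without IL-23-ear 1 or 3 or imiquimod-ear 1 or 4. Of 22 megakaryocyte and platelet genes 2 were lower, Selp and Slc6a4 (9.09%, against 10.2% of all genes tested, with a list median of -0.78). That count was 4 without IL-23-ear 2 and 0 without IL-23-ear 1 or 3 or imiquimod-ear 1 or 4.

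**Figure D3:**
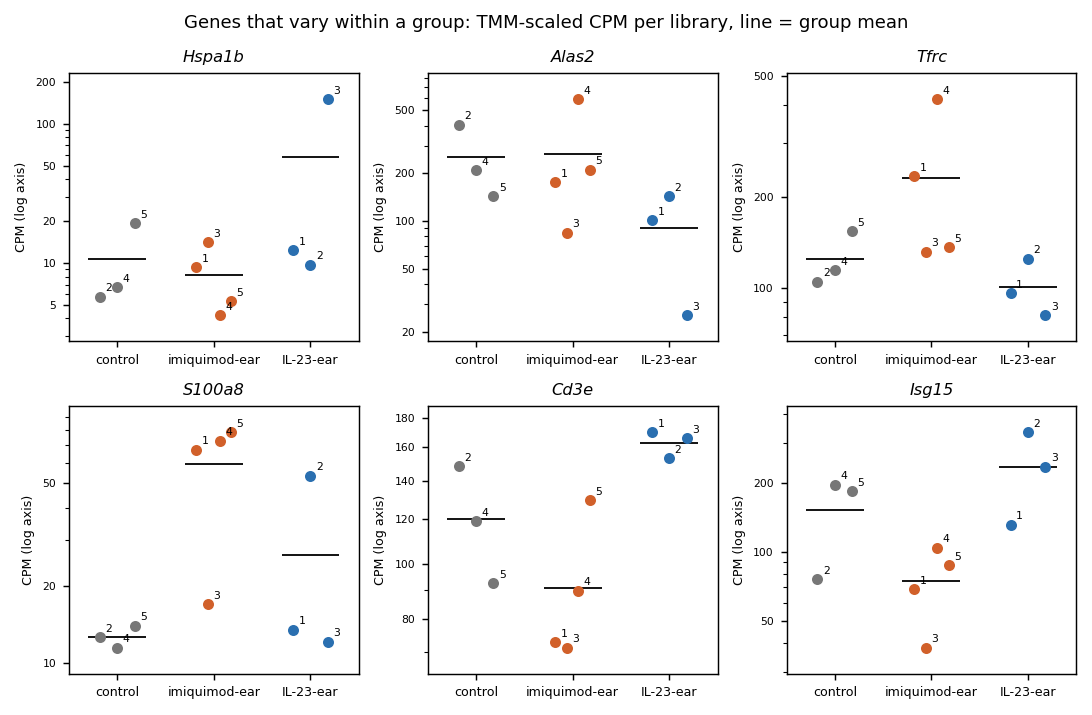
TMM-scaled CPM per library on a log axis for 6 genes that spread widely within a group, with replicate numbers beside the points and lines at the means. IL-23-ear 3 is highest for Hspa1b (151 CPM) and lowest for Alas2 (25.5 CPM), imiquimod-ear 4 is highest for Alas2 and Tfrc, and IL-23-ear 2 lies among the imiquimod-ear libraries for S100a8 (53.5 CPM).

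T cell genes were higher after IL-23. Of 27 tested, 23 were higher and 0 lower (median 0.75), 24 without overlap. Cd2, an adhesion receptor, measured 161, 166 and 168 CPM against 94.2, 83.7, 103 and 124 CPM, with imiquimod-ear 5 nearest to IL-23-ear (0.70 ± 0.11, adjusted p = 0.002). Cd3e, a subunit of the T cell receptor complex, measured 170, 153 and 166 CPM against 72.9, 71.2, 89.8 and 129 CPM (0.85 ± 0.22, adjusted p = 0.0225). That call was lost without IL-23-ear 1 (0.83, adjusted p = 0.0696) or IL-23-ear 3 (0.85, adjusted p = 0.0725). It was also lost without imiquimod-ear 1, at 0.77 and an adjusted p of 0.0643, and without imiquimod-ear 3, at 0.76 and 0.0594. Cd8a, of cytotoxic T cells, was at 1.06 ± 0.24 (adjusted p = 0.013, and 0.061 in a fit of the 7 libraries alone). The T cell count was 9 without IL-23-ear 1 or 3 and in that smaller fit, 11 without imiquimod-ear 1, 14 without imiquimod-ear 3 and 27 without imiquimod-ear 5. Regulatory T cell and checkpoint genes had 1 of 15 lower (6.67%, against 10.2% of all genes tested) and 0 higher (median -0.27). The lower member was the inhibitory receptor Tigit at -1.42 (adjusted p = 0.00798), and the lower count was 2 without imiquimod-ear 4 and 3 without imiquimod-ear 5. Of 21 NK and cytotoxic genes 5 were higher (23.8%, against 7.06% of all genes tested) and 0 lower (median 0.42). The pore-forming protein Prf1 measured 33.9, 35.6 and 39.2 CPM against 17.6, 12.2, 22.2 and 26.1 CPM (0.89 ± 0.20, adjusted p = 0.0104). Ncr1, a receptor of NK cells, was at 0.55 ± 0.22 (adjusted p = 0.0958, and 0.0315 without imiquimod-ear 5). That count was 2 without IL-23-ear 1 or 2 or imiquimod-ear 1 or 3, 1 without IL-23-ear 3, 3 in a fit of the 7 libraries alone and 9 without imiquimod-ear 5.

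B cell genes that passed the threshold differed by small amounts. Of 21 tested, 4 were higher (19%, against 7.06% of all genes tested) and 1 lower (4.76%, against 10.2%), with a median of 0.12. Cd79a, of the B cell receptor complex, was at 0.21 ± 0.08 (adjusted p = 0.0806), and at 0.28 and 0.0149 without imiquimod-ear 5. Fcmr, the IgM receptor, measured 655, 683 and 615 CPM against 482, 458, 499 and 513 CPM, with no overlap (0.42 ± 0.08, adjusted p = 0.0038). Each of the 7 libraries but imiquimod-ear 5, and control 4, lowered the higher count to 1 or 2 when left out, and the 1 lower member, Fcrla, was lost without IL-23-ear 1 or 3. Of 12 marginal zone B cell genes 4 were higher (33.3%, against 7.06%) and 1 lower (8.33%, against 10.2%), with a median of 0.07. Dtx1, a Notch target, was at 0.56 ± 0.11 and the receptor Notch2 at 0.30 ± 0.07 (adjusted p 0.00666 and 0.0148). The Notch2 call was lost without IL-23-ear 2, and the higher count was 1 without that library and 2 without IL-23-ear 1 or imiquimod-ear 1, 3 or 4. The 1 lower member was Mzb1, which plasma cells also express.

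Marginal zone macrophage genes were higher in part. Of 11 tested, 4 were higher (36.4%, against 7.06% of all genes tested) and 0 lower. The median was 0.36, and 0.70 with a minimum count of 30 or without a filter. Siglec1, the sialic acid receptor of metallophilic macrophages, measured 116, 169 and 155 CPM against 85.8, 57.9, 69.7 and 68.1 CPM (1.06 ± 0.19, adjusted p = 0.00349). Cd209b, the lectin SIGN-R1 that takes up blood-borne polysaccharides, measured 21.8, 28.8 and 24.0 CPM against 9.35, 5.26, 7.45 and 13.9 CPM (1.46 ± 0.31, adjusted p = 0.00796). Neither gene overlapped between the groups. The list count was 2 when any of IL-23-ear 1, 2 or 3, imiquimod-ear 1, 3 or 4 or control 4 was left out. Of 22 red pulp macrophage genes 4 were higher (18.2%, against 7.06% of all genes tested) and 0 lower (median 0.26). The 4 were Axl and the subunits of complement C1q. That count was 0 without IL-23-ear 1, 2 or 3 or imiquimod-ear 3 or 4, 2 without imiquimod-ear 1 and 1 in a fit of the 7 libraries alone, and Spic was at 0.52 ± 0.23 (adjusted p = 0.129). Of 23 complement and Fc receptor genes 12 were higher and 0 lower (median 0.41), led by C4b at 461, 493 and 478 CPM against 272, 239, 305 and 369 CPM (0.69 ± 0.12, adjusted p = 0.00247). C4b has a near-identical neighbour in mice, so its reads are uncertain. The complement count was 5, 2 and 1 without IL-23-ear 1, 2 or 3, 5, 3 and 6 without imiquimod-ear 1, 3 or 4, and 5 in a fit of the 7 libraries alone.

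Of 22 conventional dendritic cell genes 6 were higher (27.3%, against 7.06% of all genes tested) and 1 lower (4.55%, against 10.2%), with a median of 0.26. The higher count was 10 without imiquimod-ear 5, and 2 or 3 without any 1 of the other 6 libraries. Of 18 plasmacytoid dendritic cell genes 2 were higher (11.1%) and 1 lower (5.56%), with a median of 0.20, or 0.11 without IL-23-ear 3. In that list 1 was higher without IL-23-ear 1 or 2, and 0 were lower without IL-23-ear 2 or 3. The former included Irf4, the latter Bst2, both given above. Ms4a4c, of monocytes, measured 200, 316 and 256 CPM against 119, 92.7, 102 and 121 CPM (1.24 ± 0.22, adjusted p = 0.00382). Its list had 3 of 23 higher (13%, against 7.06% of all genes tested) and 1 lower (4.35%, against 10.2%). The higher count was 1 without IL-23-ear 1, 2 or 3 or imiquimod-ear 3 or 4. The lower count was 0 without IL-23-ear 1 or 3 and 2 without imiquimod-ear 3. Hlf, a transcription factor of blood stem cells, measured 9.13, 9.47 and 8.35 CPM against 3.94, 4.11, 4.31 and 4.93 CPM. Its groups lay far apart for their spread (1.05 ± 0.16, adjusted p = 0.00158), while 18 of 21 stem and progenitor genes missed the threshold. In that list 2 were higher (9.52%, against 7.06% of all genes tested) and 1 lower (4.76%, against 10.2%). The higher count was 1 without IL-23-ear 1 or 3 or imiquimod-ear 1 or 3 and 4 without imiquimod-ear 5. The lower count was 0 without any 1 of the IL-23-ear libraries and 2 without imiquimod-ear 3 or 5 or control 5.

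Smaller lists of cell state showed where single libraries carried a value. Of 13 mitochondrially encoded genes 4 were higher (30.8%, against 7.06% of all genes tested) and 0 lower (median 0.12). Among them mt-Nd2 measured 1486, 1469 and 1468 CPM against 1228, 1182, 1256 and 1308 CPM (0.25 ± 0.06, adjusted p = 0.0135). Mitochondrially encoded genes took 3.53% ± 0.0668 of counts (n = 3) against 3.07% ± 0.228 (n = 4) and 2.93% ± 0.161 in the controls (n = 3). The exact 2-sided permutation test of IL-23-ear against imiquimod-ear gave p = 0.0571, the smallest possible. The list median against control was 0.33 after IL-23 and 0.19 after imiquimod. The count of higher genes was 7 without imiquimod-ear 5, 2 without IL-23-ear 1 or 2 or imiquimod-ear 1 or 3, and 1 without IL-23-ear 3 or imiquimod-ear 4 and in a fit of the 7 libraries alone. Of 16 cytosolic heat shock genes 3 were higher (18.8%, against 7.06% of all genes tested) and 0 lower. The median was 0.43, and 0.10 without IL-23-ear 3. Hspa1b, an inducible chaperone with a near-identical copy, measured 12.3, 9.70 and 151 CPM against 9.35, 14.1, 4.23 and 5.31 CPM. Only IL-23-ear 3 was high, and the log2 fold change of 2.80 ± 0.87 (adjusted p = 0.0466) became 0.44 (adjusted p = 0.636) without it. IL-23-ear 3 was also the lowest library for erythroid genes. The heat shock count was 0 without IL-23-ear 3 or imiquimod-ear 1 or 4 and in a fit of the 7 libraries alone, 1 without imiquimod-ear 3 or control 4 and by limma-voom, and 5 with a minimum count of 30. Of 23 cholesterol synthesis genes 6 were lower (26.1%, against 10.2% of all genes tested) and 0 higher (median -0.36). Among them the sterol dehydrogenase Nsdhl measured 15.8, 15.7 and 15.8 CPM against 36.2, 38.0, 21.8 and 19.1 CPM (-0.86 ± 0.20, adjusted p = 0.0107). Imiquimod-ear 5 was again nearest to IL-23-ear, and 16 genes of the list were lower without it. The count was 1 or 2 without IL-23-ear 1, 2 or 3 or imiquimod-ear 1 or 3, and 0 in a fit of the 7 libraries alone. Of 30 stroma and endothelium genes 3 were higher (10%, against 7.06% of all genes tested) and 1 lower (3.33%, against 10.2%), with a median of 0.27. The higher count was 13 without imiquimod-ear 5, 7 by DESeq2 and 0 in a fit of the 7 libraries alone. It was 1 without IL-23-ear 1, 2 or 3 or imiquimod-ear 1 or 3. The lower member, Acta2, was lost without any 1 of the 10 libraries but imiquimod-ear 4 or 5. Of 23 immediate early genes 5 were higher (21.7%, against 7.06% of all genes tested). The median was 0.19, and 0.31 without imiquimod-ear 5. The count was 2 without IL-23-ear 1 or 3 or imiquimod-ear 1, and 3 without imiquimod-ear 3. The mRNA decay factor Zfp36 was at 0.43 ± 0.09 (adjusted p = 0.00799). Of 28 inflammatory cytokine and chemokine genes 4 were higher (14.3%, against 7.06% of all genes tested): Csf1, Il18, Ccl8 and Il15. The median was 0.35. The count was 1 without IL-23-ear 1 or 2 or imiquimod-ear 1, and 2 without IL-23-ear 3 or imiquimod-ear 3.

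**Figure D4:**
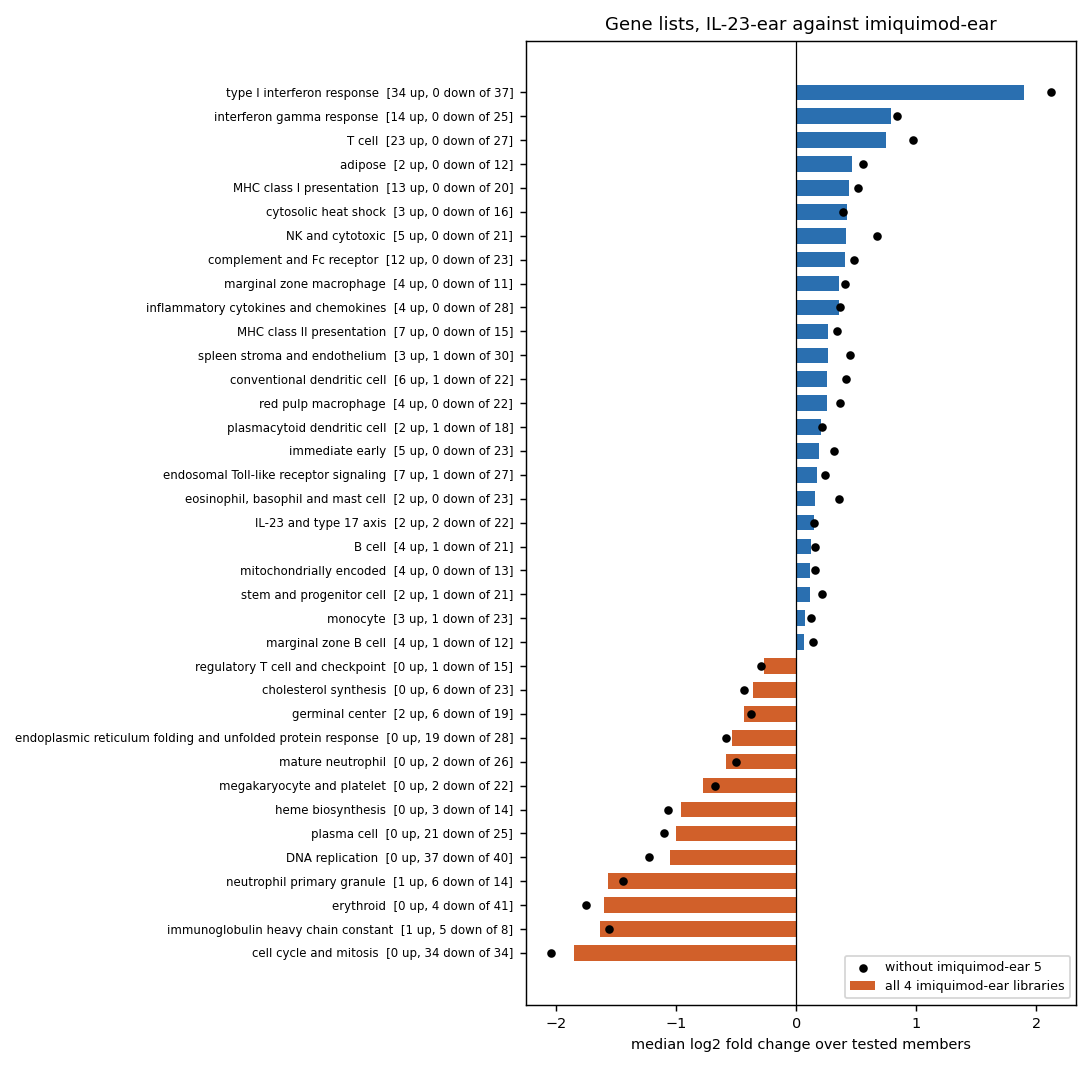
Bars give the median log2 fold change of the tested members of 37 gene lists, IL-23-ear against imiquimod-ear, with the number past the threshold in each direction in brackets. Black points give the median without imiquimod-ear 5; the type I interferon list is highest at 1.90 and the cell cycle list lowest at -1.85, and the pancreas list, with 9 tested members and a summed level of 7.6 to 16.2 CPM, is left out.

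Each treated group was set beside the controls to show where the 2 differ from them; these comparisons share the 3 control mice and, with the one above, the treated ones. Between imiquimod-ear and control 3219 genes differed (21.2%; 2161 or 14.3% higher and 1058 or 6.98% lower after imiquimod), and 4977 without imiquimod-ear 5, 1904 and 1975 without imiquimod-ear 1 or 3, 1389 and 1066 without control 2 or 4 and 1126 in a fit of these groups alone. Between IL-23-ear and control 8 differed (0.0528%), 7 higher (0.0462%) and 1 lower (0.0066%), with 1305 at an unadjusted p under 0.05. DESeq2 called 132 and limma-voom 15, and 0 or 1 were called when any 1 library of these groups was left out. The 7 higher genes were Rps15, Rps14 and Rps24 of the ribosome and mt-Atp6, mt-Co2, mt-Co3 and mt-Nd3 of mitochondria, with log2 fold changes of 0.33 for Rps24 to 0.44 for Rps14. The 1 lower gene, Phykpl, an enzyme of lysine breakdown, was at -0.76 against control and at -0.57 against imiquimod-ear.

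The list medians against control are given side by side. For type I interferon genes the median was -1.57 after imiquimod (33 of 37 lower) and 0.39 after IL-23 (0 of 37 in either direction). For cell cycle genes it was 1.63 (34 of 34 higher) and -0.25 (0 of 34), and for plasma cell genes 1.04 (21 of 25 higher) and 0.01 (0 of 25). T cell genes gave -0.36 (6 of 27 lower) and 0.33 (0 of 27). Erythroid genes gave 0.81 and -0.87 with 0 of 41 past the threshold in both. By library, the 1070 genes higher in IL-23-ear lay at a median of -0.42, -0.52, -0.38 and -0.20 log2 units from the control mean in imiquimod-ear 1, 3, 4 and 5 and at 0.08 to 0.16 in the IL-23-ear libraries. The 1553 lower genes lay at 0.71, 0.81, 0.64 and 0.26 in imiquimod-ear and at -0.07 to 0.04 in IL-23-ear. Of the imiquimod-ear libraries, imiquimod-ear 5 lay nearest to the controls in both sets.

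**Figure D5:**
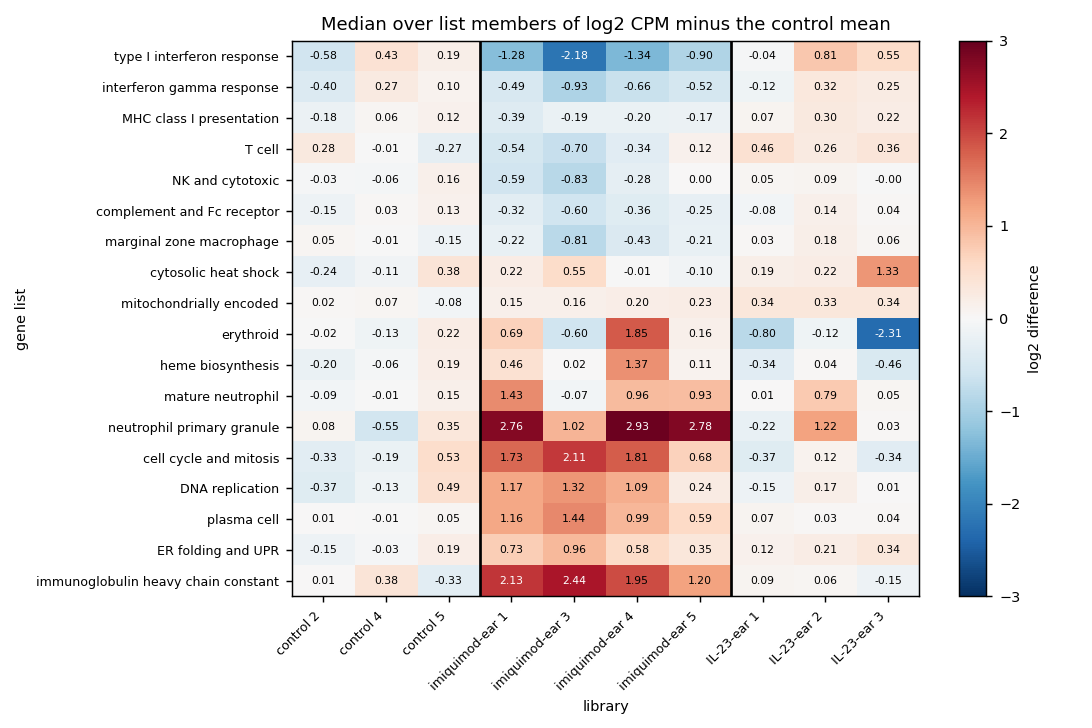
Rows are 18 gene lists and columns the 10 libraries of 3 groups; each cell is the median over the tested members of log2 CPM minus the mean log2 CPM of the controls, on a colour scale from -3 to 3. In the type I interferon row the imiquimod-ear libraries stand at -2.18 to -0.90 and the IL-23-ear libraries at -0.04 to 0.81; in the erythroid row IL-23-ear 3 stands at -2.31 and imiquimod-ear 4 at 1.85.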

How the data were processed

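Spleen RNA libraries (poly(A)-selected, not strand-specific, paired reads of 150 bases, per the labels' protocols) of 14 mice were deposited by the authors as a table of raw counts per gene. The submitters' processing notes name fastp 0.23.2, HISAT2 2.2.1, featureCounts 2.0.3, StringTie 2.2.1, DESeq2 1.38.3 and the build GRCm39, with no roles given; the gene annotation is not given in the sources used here. Entries without a gene name (624, 0.484 to 0.674% of counts) were left out. Of the named entries, 22101 were matched to GENCODE for symbols and positions.

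Genes were filtered with filterByExpr (minimum count 10), scaled by TMM and fitted with edgeR 4.0.16 (R 4.3.3; robust quasi-likelihood, a mean per group, all 14 libraries). P-values were adjusted by Benjamini-Hochberg over the 15159 genes tested, with a threshold of 0.05. A standard error is the log2 fold change divided by the root of its F statistic. Log2 CPM used a prior count of 2. Simulated counts of 15007 genes were given known changes in a small part of the genes. For IL-23-ear against imiquimod-ear, 91.04% of 67 genes changed 2-fold and 31.34% of 67 changed 1.5-fold were called, with 10 false calls. Alternatives used DESeq2 1.42.0, limma-voom (limma 3.58.1), DESeq2's size factors (RLE), other filters, removal of haemoglobin and immunoglobulin genes, a fit of the compared groups alone, a replicate block and leaving out each library. Shares of counts were compared by exact permutation tests.

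Genes were named by rule: the 12 largest rises and falls among genes past the threshold, of mean log2 CPM 1 or more and without overlap, for any list holding 3 or more called members, its 3 lowest by adjusted p, and a set of markers whatever their result. The gene lists and members were chosen with earlier results of these data known. All 18 replicate pairs differed beyond sampling noise (chi-square per degree of freedom at least 24.064). Libraries are described as separate mice, and p-values measure the spread between them. Some genes that the rule names are not reported here.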

Additional observations from a re-analysis of the deposited data

Results flagged for a closer look

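Among 154 values looked at in the 4 imiquimod-ear libraries, 4 had 1 library far from the other 3 by Dixon's test at the 95% level; chance alone does this in about 1 of 20 groups. Ero1b was 120 CPM in imiquimod-ear 4 and 129.8 to 131.2 CPM in the others, all above IL-23-ear. Il17f was 0.07925 CPM in imiquimod-ear 1 and 0 in the others. Il22 was 0.02642 CPM in imiquimod-ear 1 and 0 in the others. Epx, the eosinophil peroxidase, was 0.3362 CPM in imiquimod-ear 4 and 0 in the others. The Il17f and Il22 values lie at or below the floor of 3 counts.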

How the results depend on the processing

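Of 1368 counts of list members recomputed over the alternatives, 1074 were within 1.5 times of the value reported, and 682 of 683 list medians kept their sign. The exception was the pancreas list, of genes at low levels, at -0.0414 with a minimum count of 30 against 1.03. Of the results for single genes, 2350 kept direction and side of the threshold, 270 lost the call, 9 gained it and 6 changed sign. These were the gene Igha, at -0.0093 by limma-voom, -0.1276 with the replicate block, -0.2806 without IL-23-ear 2, -0.0564 without imiquimod-ear 3 and -0.0192 without imiquimod-ear 5, and the gene Cd5l, at 0.0301 without IL-23-ear 1. With 1 library left out they ranged from -0.2806 to 0.2653 and from -0.2413 to 0.0301.

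Between IL-23-ear and imiquimod-ear the genes called numbered 1247 (543 higher, 704 lower) in a fit of the compared groups alone and 1101 to 4463 (470 to 2059 higher, 631 to 2404 lower) with 1 library left out. Between imiquimod-ear and control they numbered 1126 and 1066 to 4977. Between IL-23-ear and control they numbered 132 by DESeq2, 15 by limma-voom, 0 with RLE size factors, without a filter and in a fit of the compared groups alone, and 0 to 1 with 1 library left out. Leaving out a library also leaves fewer samples in the fit; beyond that the cause was not tested. Deviations of same-numbered libraries of IL-23-ear and imiquimod-ear from their group means correlated at r = -0.10 for number 1 and 0.18 for number 3. The latter was the highest r of all same-numbered pairs in the series, and no label pairs the libraries. With the number as a replicate block the 3 comparisons called 1261 (494 higher, 767 lower), 311 and 0 genes. Genes under 0.0755 to 0.0960 CPM (3 counts), Il17a and Il22 among them, lie below what this depth resolves.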

Other observations

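Gene families outside the lists, chosen after results were seen and described without a test of their own, showed the following counts. Of all genes tested 7.06% were higher in IL-23-ear and 10.2% lower, or 13.6% and 15.9% without imiquimod-ear 5. Of 90 immunoglobulin heavy chain variable segments 72 were lower in IL-23-ear than in imiquimod-ear (median log2 fold change -1.60), as were 74 of 98 kappa segments (-1.30). The segments share sequence, so reads may be assigned to the wrong member. Of T cell receptor variable segments 6 of 75 alpha segments, near the share of all genes tested, and 7 of 19 beta segments were higher. The medians were 0.83 and 0.74, and 17 and 12 were higher without imiquimod-ear 5. The Schlafen family of interferon-inducible growth regulators had 5 of 8 higher (median 1.44), and the PYHIN family 11 of 13 (1.61).

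Counts of genes of protein production rose without imiquimod-ear 5, and so did the share of all genes tested that were lower, from 10.2% to 15.9%. Of 18 cytosolic aminoacyl-tRNA synthetases, which charge tRNAs, 8 were lower (median -0.41, and 15 lower without imiquimod-ear 5). Of 78 mitochondrial ribosomal proteins 10 were lower, near the share of all genes tested (median -0.21, and 32 lower without imiquimod-ear 5). Of 84 cytosolic ribosomal proteins 1 was higher and 2 lower (median -0.02; 2 higher and 10 lower without imiquimod-ear 5), and their medians against control were 0.32 after imiquimod and 0.29 after IL-23. Of 43 histone genes 1 was higher and 8 lower (median -0.57), where 7.06% and 10.2% of all genes tested were. The libraries were poly(A)-selected, and how well that captures histone mRNA was not tested.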
